A study of Danio rerio with 18 samples.

Results

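The mature eggs of sinhcaf mutant zebrafish were compared with those of wild-type zebrafish across 7788 genes of the 25432 in the deposited expression table. The genes were those with at least 1 FPKM in at least 4 of the 10 egg libraries, where FPKM is a count of fragments scaled by the length of the gene model and by all mapped fragments of the library. The study sequenced messenger RNA of eggs and of follicles at a stage that the labels call FG, a term they do not spell out, in 18 libraries. The egg groups were 5 libraries of fish with the genotype sinhcaf-/- and 5 libraries of wild-type fish, each made from the eggs of 1 female, and the sampled tissue was ovary in every library. The FG follicle groups, used here only to set the egg changes beside those of another stage, were 4 sinhcaf-/- and 4 wild-type libraries, also of 1 female each. The labels give neither the allele, nor the age of the fish, nor how the wild-type fish were related to the mutants, and name no treatment. RNA with an integrity number of at least 7 was used, and libraries were made with a stranded poly(A) kit.

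SINHCAF belongs to the complex of SIN3 with histone deacetylases, a co-repressor that removes acetyl groups from histone tails and is recruited to promoters by other proteins. A fish egg is laid with a store of messenger RNA made earlier, while the oocyte grew, and is itself almost silent in transcription. Its transcript levels therefore depend on what was transcribed before maturation and on which stored transcripts were kept or degraded since. The same stored transcripts support the embryo until its own genome is switched on.

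No count of reads goes with the FPKM values, so depth is not known and only the spread between females gives the precision. Summed FPKM lay between 376795 and 464199 in mutant eggs and between 375178 and 404150 in wild-type eggs. Genes of the mitochondrial genome took 43.4% ± 5.81 of it in mutant eggs and 35.5% ± 1.97 in those of wild type (SD over 5 libraries each, two-sided exact permutation p = 0.0238, or 0.0952 when adjusted over 4 library measures). The 10 highest other genes took 3.19% ± 0.453 of it in mutant eggs and 3.76% ± 0.233 in those of wild type (exact permutation p = 0.0476, adjusted 0.0952). Correlation across genes was 0.953 to 0.984 among mutant libraries, 0.951 to 0.991 among wild-type libraries and 0.912 to 0.950 between the genotypes, so that the libraries of each genotype resembled each other more than those of the other. Libraries 4 and 5 of both genotypes stood apart from libraries 1 to 3, with 7682 to 7917 genes at 1 FPKM or more in 4 and 5 against 6929 to 7424 in 1 to 3. The genotype comparison was therefore also made within each of these sets. Markers of oocytes and eggs were present, with 14 of 15 at 1 FPKM or more in some egg library. Their summed level was 4075 to 5184 FPKM in mutant eggs and 4480 to 5192 FPKM in wild-type eggs. The remaining marker, btg4, was under 0.5 FPKM in all 10 egg libraries.

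The targeted gene itself was scarce. Its FPKM was 0.217, 0.220, 0.184, 0.269 and 0.351 in the 5 mutant libraries, against 0.361, 0.791, 0.421, 1.59 and 0.469 in the 5 wild-type ones. All mutant values lay below all wild-type values, although the highest mutant value, 0.351, was close to the lowest wild-type value, 0.361. The group means differed by -0.42 on the log2(FPKM + 1) scale that is used throughout (two-sided exact permutation p = 0.00794, the smallest that 5 against 5 allows). Without wild-type library 4 the difference of means was -0.27. With only 1 library at 1 FPKM or more, sinhcaf fell short of the level filter and is not among the genes tested.

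Genes of the complex that SINHCAF belongs to held 1 call. Of 19 tested members of the SIN3 complex, brms1la, a SIN3 subunit gene, was higher in mutant eggs (5.26%) and none was lower. Of all genes tested, 14.4% were called in either direction and 6.54% as higher. The FPKM of brms1la was 7.14, 8.57, 7.79, 9.06 and 10.9 in mutant eggs, against 2.23, 5.25, 2.41, 7.28 and 3.72 in wild-type eggs. Mutant library 1 lay just under wild-type library 4, and the other mutant libraries lay above all wild-type ones (log2 0.99, SE 0.25; limma, Benjamini-Hochberg adjusted p = 0.0207, a call lost in 3 of 25 alternatives). The other 18 members, which include the scaffolds sin3aa, sin3ab and sin3b and the deacetylase hdac1, ran from -0.37 to 0.73 and none passed the test. Under quantile normalization 1 member of the complex was lower.

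The histone deacetylase that changed was hdac3, the catalytic subunit of the NCOR and SMRT co-repressors, which is not part of the SIN3 complex. It stood at 30.8, 26.6, 31.2, 26.6 and 17.6 FPKM in mutant eggs, against 1.79, 3.07, 3.03, 4.39 and 3.64 FPKM in wild-type eggs. Every mutant library lay above every wild-type one (log2 2.73, SE 0.20; limma adjusted p = 2.33e-06). It was the only call among 16 tested deacetylase and NCOR genes (6.25%, against 6.54% of all genes called higher). There 3 were higher with the replicate number as a block and 2 with median-of-ratios scaling.

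Over all 7788 genes, 1124 differed between mutant and wild-type eggs at a Benjamini-Hochberg adjusted p under 0.05 by limma, which is 14.4% of those tested. Of these, 509 genes were higher in mutants (6.54% of genes tested) and 615 were lower (7.9%). Most changes were small, with a median size of 0.81 on the log2 scale among called genes. By at least 1 on that scale 172 rose and 217 fell, by at least 2 27 rose and 53 fell, and by at least 3 5 rose and 18 fell. The 5 mutant libraries did not overlap the 5 wild-type ones in 975 genes (12.5% of those tested), 399 with the mutants above and 576 with the mutants below. The share of higher genes among calls, 45.3%, depended on the scaling, with 31.9% for TPM (338 higher and 723 lower) and 58.0% for TPM without mitochondrial-genome genes (670 higher and 486 lower). With the replicate number as a block, 1616 genes were called, 871 higher and 745 lower. All 1124 called genes kept their direction in every one of these settings in which they were tested. As the settings reuse the same egg libraries, a kept direction is no separate support. Fewer kept the call, 952 with TPM, 993 with TPM without mitochondrial-genome genes and 1087 with the replicate block.

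**Figure D1:**
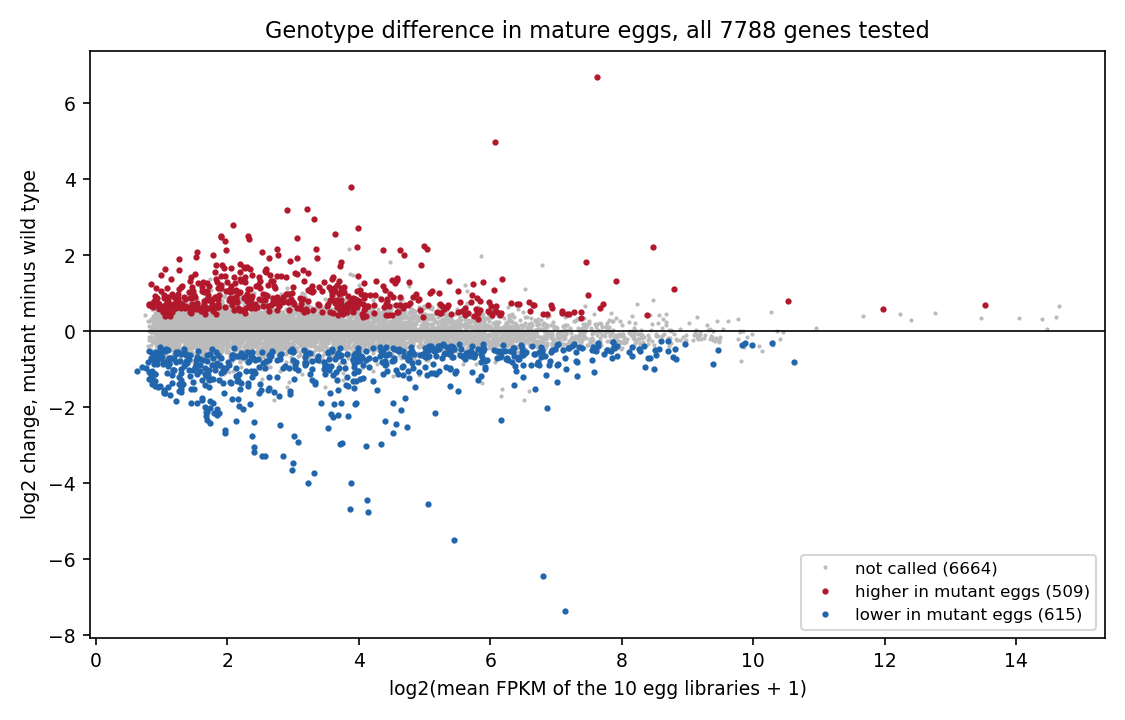
Log2 change, mutant minus wild type, of each of the 7788 genes tested, against the log2 of its mean FPKM plus 1 over the 10 egg libraries. Points above 0 are higher in mutant eggs, and coloured points are the 509 higher and 615 lower calls, of which the falls reach further from 0 than all but a few of the rises.

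The plot of change against level shows calls at every abundance. Among genes with a mean under 2 FPKM 12.1% were called, and 12.6%, 16.9% and 18.6% were called at 2 to 10, 10 to 50 and over 50 FPKM. Above 50 FPKM 55 of 1069 genes were higher and 144 lower in mutant eggs, while from 2 to 10 FPKM 211 of 3007 were higher and 167 lower.

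A small set of transcripts was nearly absent from mutant eggs and plainly present in wild-type eggs. Under 0.5 FPKM in all mutant libraries and at 2 FPKM or more in all wild-type libraries were 21 genes, and 4 genes showed the reverse. Like all genes that reached 1 FPKM in 1 genotype alone, they had to differ to pass the level filter. The p-values of such genes are therefore no separate support. Such genes named below include sec11a, dpm1, pigl, faap24, rnf41, urahb, mrps22, mrpl54, eif4g3b, fgd4b, map7d3, ubb, fn1a and gpx8. They also count in the shares called, both of the lists and of all genes. The 3 largest falls lay outside this set of 21, since in each of them at least 1 mutant library exceeded 0.5 FPKM. The adaptor gene spsb1, whose product brings substrates to a cullin ubiquitin ligase through its SOCS box, fell by 6.46 on the log2 scale (SE 0.22; limma adjusted p = 4.41e-09). It stood at 1.63, 0.902, 1.98, 2.03 and 0.840 FPKM in mutant eggs, against 200, 276, 219, 272 and 130 FPKM in wild-type eggs. No mutant library came near the lowest wild-type one. The lysosomal lysolipid transporter gene spns1 had 0.689, 1.27, 0.833, 0.796 and 0.894 FPKM in mutant eggs, against 85.7, 77.9, 79.0, 93.3 and 86.8 FPKM in wild-type eggs. Both groups were tight and far apart (log2 -5.50, SE 0.13; limma adjusted p = 7.23e-11). The largest fall of all was that of a gene known only by a clone name, zgc:56699, chosen here after its values were seen. It stood at 0.353, 0.277, 3.97, 0.265 and 0.263 FPKM in mutant eggs and at 251 to 315 FPKM in wild-type eggs (log2 -7.37). Mutant library 3 was above the other mutant libraries, which all lay within 0.263 to 0.353 FPKM.

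Genes of protein entry into the endoplasmic reticulum and of its sugar and lipid donors held 3 of the 21 near-absent genes. The catalytic subunit gene of signal peptidase, sec11a, stood at 0.310, 0.482, 0.162, 0.158 and 0.0792 FPKM in mutant eggs, against 39.6, 23.1, 43.1, 31.6 and 28.7 FPKM in wild-type eggs (log2 -4.76). The gene dpm1 encodes the catalytic subunit of dolichol-phosphate mannose synthase, which makes the mannose donor for glycosylation and lipid anchors. It had 0.247, 0.254, 0.264, 0.353 and 0.207 FPKM in mutant eggs, against 9.01, 17.9, 8.81, 21.6 and 11.4 FPKM in wild-type eggs (log2 -3.46). Transcripts of dpm3, which holds the same enzyme at the membrane, were higher in mutants, at 3.52, 4.28, 3.88, 6.66 and 4.24 FPKM, against 1.16, 2.79, 0.774, 1.62 and 1.86 FPKM in wild-type eggs. No mutant value of dpm3 fell within the wild-type range (log2 1.08, SE 0.22; limma adjusted p = 0.00541). Transcripts of pigl, an enzyme of the GPI anchor pathway, were listed at 0 in mutant libraries 2, 4 and 5 and at 0.341 and 0.177 FPKM in libraries 1 and 3, against 8.72 to 13.2 FPKM in wild-type eggs (log2 -3.29). In the list of 59 such genes 1 rose and 7 fell (1.69% and 11.9%, against 6.54% and 7.9% of all genes). Among the 7, sec11a, dpm1 and pigl passed the level filter through wild-type libraries alone, so they had to differ to be tested. With the replicate block 2 rose and 8 fell. The median of the list, 0.01, was close to that of all genes, 0.04.

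Genes of DNA crosslink repair included a near-absent member as well. The Fanconi pathway removes crosslinks between the DNA strands through a core complex that marks a further protein pair with ubiquitin. The core complex gene fancg stood at 0.0523, 0, 0.208, 0.105 and 0.0506 FPKM in mutant eggs, against 30.8, 26.7, 34.1, 23.4 and 20.2 FPKM in wild-type eggs (log2 -4.67, SE 0.16; limma adjusted p = 4.41e-09). All mutant libraries were near 0, and no wild-type library was below 20 FPKM. It passed the level filter through wild-type libraries alone, so it had to differ to be tested. The DNA translocase gene fancm had 3.004, 4.38, 3.62, 3.54 and 3.92 FPKM in mutant eggs, against 35.0, 15.6, 34.4, 14.1 and 15.3 FPKM in wild-type eggs (log2 -2.24). The gene of its partner, faap24, averaged 0.189 ± 0.146 FPKM in mutant eggs and 2.62 ± 0.870 FPKM in wild-type ones (SD, n = 5 each; log2 -1.58). The conjugating enzyme gene ube2t fell by 0.58, a call lost in 13 of 25 alternatives. In the other direction, fanci, a target of that enzyme, rose by 0.88 (adjusted p = 0.0212), with mutant library 1 at 2.69 FPKM inside the wild-type range of 2.06 to 2.73 FPKM. Of 16 tested Fanconi genes 1 was thus higher and 4 were lower (6.25% and 25%, against 6.54% and 7.9% of all genes). Among the 4, faap24 passed the level filter through wild-type libraries alone, as fancg did. The median of the 16 genes was -0.18, against 0.04 for all genes. The base excision glycosylase gene nthl1 fell as well, by 0.72, the only call among 21 base excision and mismatch repair genes, whose median was 0.01.

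**Figure D2:**
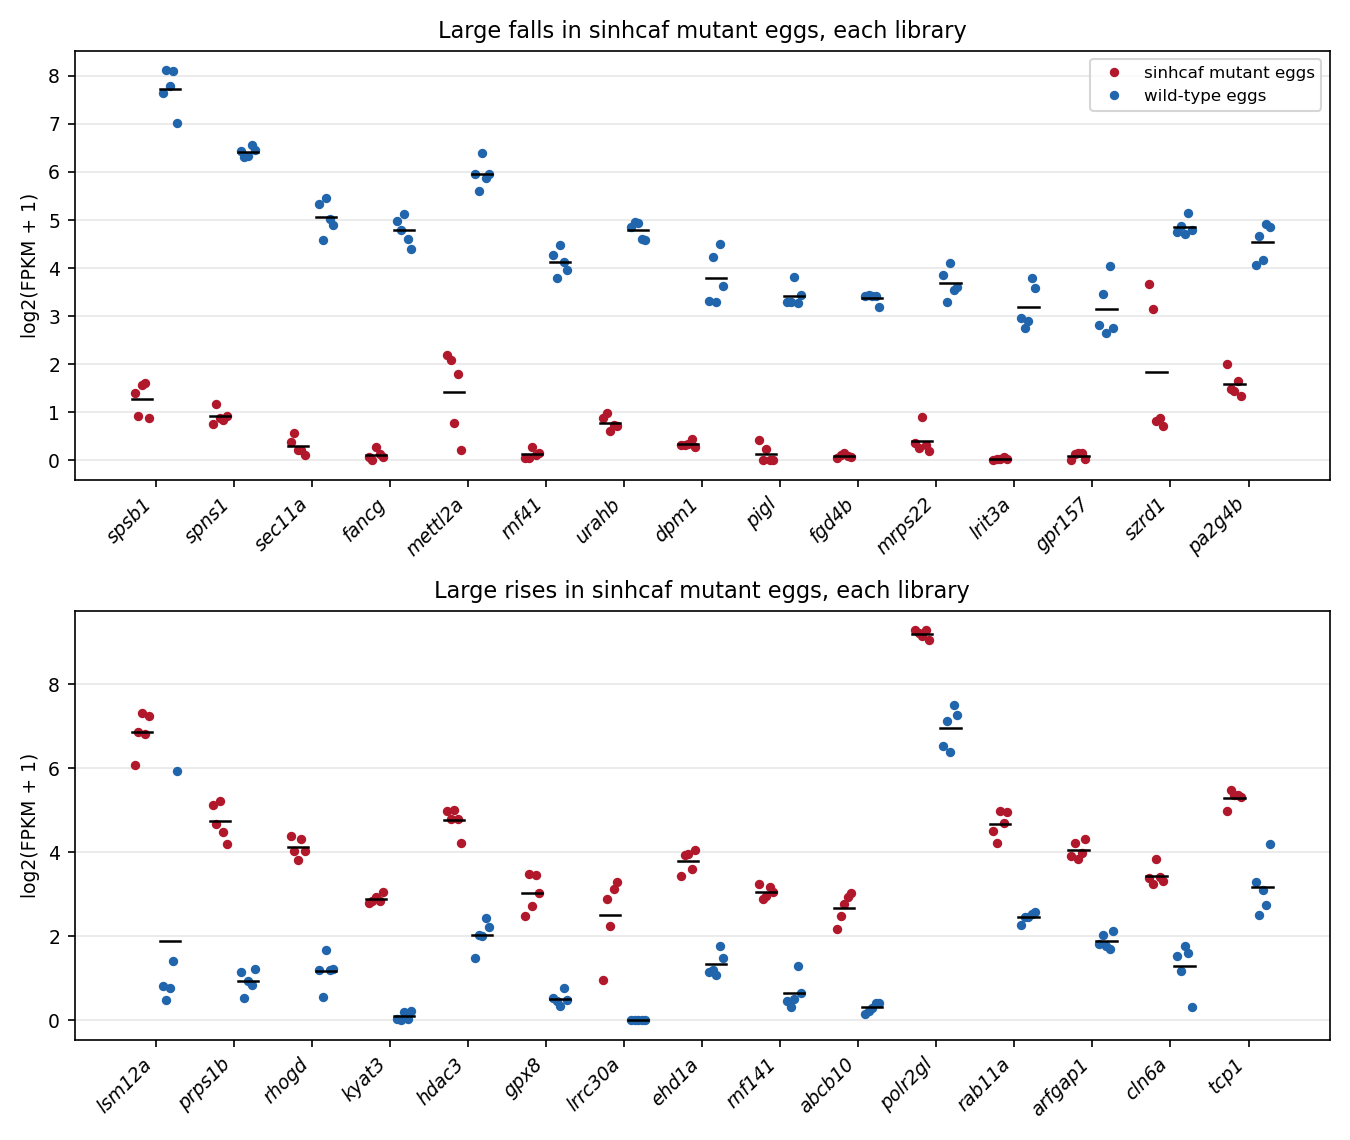
Level of 30 genes in each egg library, as log2(FPKM + 1), with 5 sinhcaf mutant libraries in red on the left of each gene and 5 wild-type libraries in blue on the right, and the group means as bars. The groups are separate for all 30 genes, mutant libraries 1 and 2 lie above the other 3 for szrd1, and wild-type library 5 lies far above the other 4 for lsm12a. Some of the 30 genes reached 1 FPKM in 1 genotype alone, so they had to differ to be tested.

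Ubiquitin and protein turnover genes held single large changes in lists whose shares were near those of all genes, 6.54% higher and 7.9% lower. The ligase gene rnf41, which acts on ErbB receptors in mammals, stood at 0.0320, 0.0318, 0.206, 0.0799 and 0.109 FPKM in mutant eggs, against 18.3, 12.9, 21.3, 16.5 and 14.6 FPKM in wild-type eggs (log2 -4.004). A gene of the same RING class, rnf141, had 8.53, 6.45, 6.74, 8.04 and 7.29 FPKM in mutant eggs, against 0.374, 0.241, 0.434, 1.45 and 0.585 FPKM in wild-type eggs (log2 2.42). Within either gene the genotypes did not overlap, and the 2 genes moved in opposite directions. Of these, rnf41 passed the level filter through wild-type libraries alone, so it had to differ to be tested. The RING gene trim105 fell by 1.27. Of 57 RING ligase genes tested, 4 rose and 4 fell (6 and 6 with the replicate block), shares of 7.02% each. Of 66 adaptors of cullin ligases 4 were higher, fbxo16 (1.14) among them, and 5 lower (6.06% and 7.58%), and with TPM without mitochondrial-genome genes 6 were higher and 4 lower. Proteasome genes held 2 calls of 38, both of assembly chaperones and both higher. They were psmg1, at 16.7 ± 2.92 FPKM in mutant eggs and 8.01 ± 2.67 FPKM in wild-type ones (SD, n = 5 each), and psmg3 (0.48, a call lost in 13 of 25 alternatives). With median-of-ratios scaling and with TPM 1 proteasome gene was higher and 1 lower, while 4 were higher and none lower with TPM without mitochondrial-genome genes, and 4 higher and 1 lower with quantile normalization.

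Among the genes of meiotic maturation, 3 of 9 tested subunits of the anaphase-promoting complex, the ligase that ends meiotic and mitotic metaphase, fell and none rose, a subset picked out after its values were seen. Of all genes tested, 6.54% were called higher and 7.9% lower. The small subunit gene cdc26 stood at 0.0602, 0.114, 0.224, 0.0571 and 0 FPKM in mutant eggs, against 5.75, 7.08, 3.67, 6.34 and 5.85 FPKM in wild-type eggs (log2 -2.61, SE 0.16; limma adjusted p = 4.55e-07). It was nearly absent in all 5 mutants and passed the level filter through wild-type libraries alone, so it had to differ to be tested. Transcripts of anapc13 averaged 19.1 ± 3.44 FPKM in mutant eggs and 35.3 ± 10.05 FPKM in wild-type eggs, and those of anapc16 15.9 ± 3.17 FPKM in mutant eggs and 28.4 ± 8.47 FPKM in wild-type ones (SD, n = 5 each). The anapc16 call failed in 9 of 25 alternatives. The kinase gene map2k1, which acts upstream of ERK, fell by 1.199, and ccng1, a p53 target, stood at 14.99 to 27.9 FPKM in mutant eggs against 48.1 to 187 FPKM in wild-type eggs (log2 -2.34). In the list of 46 maturation genes 1 rose and 6 fell (2.17% and 13.04%; 3 and 7 with the replicate block, 0 and 4 with median-of-ratios scaling), with a median of 0.00.

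The nuclear receptor gene nr4a1, known as an immediate early gene, averaged 0.0419 ± 0.0395 FPKM in mutant eggs and 5.77 ± 1.12 FPKM in wild-type ones (SD, n = 5 each; log2 -2.69). The receptor gene gpr157 averaged 0.0698 ± 0.0521 FPKM in mutant eggs and 8.52 ± 4.32 FPKM in wild-type eggs. The gene lrit3a, known for its part in retinal signalling in mammals and fish, averaged 0.0187 ± 0.0173 FPKM in mutant eggs and 8.59 ± 3.18 FPKM in wild-type eggs. In all 3 genes every mutant library lay far below every wild-type one, with log2 changes of -3.05 for gpr157 and -3.17 for lrit3a. All 3 passed the level filter through wild-type libraries alone, so they had to differ to be tested.

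The largest rises were led by genes that wild-type eggs hold at a low level. The largest of all was again that of a clone-named gene, si:dkey-9c18.3, named after its values were seen, with 276, 407, 786, 369 and 111 FPKM in mutant eggs, against 2.47, 2.83, 2.15, 0.557 and 3.94 FPKM in wild-type eggs (log2 6.68). The spread among mutants was wide, yet the lowest mutant value was far above the wild-type ones. Transcripts of lsm12a, an LSM-domain gene, stood at 66.0, 114, 157, 111 and 150 FPKM in mutant eggs, against 0.759, 0.403, 0.694, 1.66 and 59.7 FPKM in wild-type eggs (log2 4.97, SE 0.85; limma adjusted p = 0.00196). Wild-type library 5 was almost as high as the lowest mutant library, and without it the log2 change was 5.98. The phosphoribosyl pyrophosphate synthase gene prps1b, which feeds purine and pyrimidine synthesis, had 33.8, 24.4, 36.2, 21.2 and 17.3 FPKM in mutant eggs, against 1.204, 0.451, 0.928, 0.797 and 1.33 FPKM in wild-type eggs (log2 3.80). All 5 mutants stood far above all 5 wild-type females.

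Further rises were those of the kynurenine aminotransferase gene kyat3 and the mitochondrial transporter gene abcb10, both under 0.5 FPKM in all wild-type eggs. Transcripts of kyat3 stood at 5.98, 6.13, 6.68, 6.17 and 7.34 FPKM in mutant eggs, against 0.0318, 0, 0.144, 0.0179 and 0.174 FPKM in wild-type eggs. Those of abcb10 stood at 3.55, 4.55, 5.80, 6.66 and 7.17 FPKM in mutant eggs, against 0.117, 0.178, 0.225, 0.342 and 0.343 FPKM in wild-type eggs. The leucine-rich repeat gene lrrc30a, listed at 0 in each of the wild-type libraries, had 0.945, 6.35, 3.78, 7.70 and 8.83 FPKM in mutant eggs. Mutant library 1 was well below the other mutant libraries for lrrc30a, while kyat3 was even across all 5. Each of these genes passed the level filter through mutant libraries alone, so it had to differ to be tested.

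Genes of nucleotide metabolism other than prps1b fell or did not pass the test. The urate pathway hydrolase gene urahb stood at 0.852, 0.981, 0.518, 0.673 and 0.649 FPKM in mutant eggs, against 27.9, 29.9, 29.5, 23.4 and 22.9 FPKM in wild-type eggs (log2 -3.995). The GMP synthetase gene gmps averaged 6.71 ± 0.781 FPKM in mutant eggs and 21.7 ± 6.62 FPKM in wild-type eggs, and the dUTPase gene dut 6.93 ± 1.37 FPKM in mutant eggs and 13.4 ± 0.864 FPKM in wild-type ones (SD, n = 5 each). The genotypes did not overlap for these 3 genes, but urahb reached 1 FPKM in wild-type libraries alone, so it had to differ to be tested. Smaller falls were those of the purine phosphorylase gene pnp5a (-0.86) and of cad, which starts pyrimidine synthesis (-0.60, a call lost in 11 of 25 alternatives). Of 33 genes 1 was higher and 6 were lower (3.03% and 18.2%, against 6.54% and 7.9% of all genes). The counts were 2 and 8 with the replicate block and 3 and 5 with TPM without mitochondrial-genome genes.

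Mitochondrial genes encoded in the nucleus showed single large changes inside lists with medians near 0. On the mitochondrial ribosome, mrps22 stood at 0.292, 0.197, 0.859, 0.242 and 0.143 FPKM in mutant eggs, against 13.4, 8.85, 16.3, 10.6 and 11.2 FPKM in wild-type eggs (log2 -3.27). The large-subunit genes mrpl30 and mrpl54 fell by 2.19 and 2.16, while mrpl34 rose, at 48.5 ± 9.53 FPKM in mutant eggs and 24.05 ± 7.33 FPKM in wild-type ones (SD, n = 5 each). In all 2 of 54 rose and 5 fell (3.70% and 9.26%, against 6.54% and 7.9% of all genes), or 4 and 7 with the replicate block. Of 80 nuclear genes of the respiratory chain 1 rose, cycsb, one of the cytochrome c genes (0.43, a call lost in 4 of 25 alternatives), and 9 fell (1.25% and 11.2%), with a median of -0.04. They included atp5mf (-0.79) of the ATP synthase and the cytochrome oxidase assembly genes cox15, the haem A synthase gene, at -1.12, and cox18, at -0.98.

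Among genes of mitochondrial import and transport 8 of 58 rose and 6 fell (13.8% and 10.3%, against 6.54% and 7.9% of all genes). That order turned to 6 and 9 with median-of-ratios scaling and to 6 and 8 with TPM. The inner-membrane channel gene timm17a rose by 1.68, with 3.26, 6.15, 2.40, 9.80 and 10.7 FPKM in mutant eggs, against 0.260, 1.59, 0.415, 4.02 and 0.674 FPKM in wild-type eggs. Wild-type library 4 lay above mutant libraries 1 and 3, and the call was lost in 4 of 24 alternatives. The outer-membrane channel gene tomm40l fell by 1.32. The ADP and ATP carrier gene slc25a5, with at least 798 FPKM in every egg library, fell by 0.37, a call lost in 5 settings. The matrix chaperone hspa9 and grpel2, a nucleotide exchange factor for it, both rose. The levels of hspa9 were 5.05, 6.25, 5.34, 7.41 and 5.35 FPKM in mutant eggs, against 1.21, 1.37, 0.990, 1.65 and 1.35 FPKM in wild-type eggs, those of grpel2 6.79 ± 1.12 FPKM in mutant eggs and 3.21 ± 1.5 FPKM in wild-type eggs. A further gene of the import motor, dnajc15, rose by 1.12. The 13 genes of the mitochondrial genome had a median of 0.39, with 2 of them called higher, mt-nd5 (0.59, lost in 4 of 24 settings) and mt-cyb (0.69, lost in 15 of 24). With median-of-ratios scaling none of the 13 was called, with quantile normalization 1 was lower, and with the replicate block 5 were higher.

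In protein synthesis the small falls of ribosomal protein genes were the most numerous of any list. Of 82 tested genes of the cytosolic ribosome 35 fell and none rose (42.7% against the 7.9% of all genes called lower), with a median of -0.49. Between 15 (median-of-ratios scaling) and 43 (TPM) fell under other scalings. The level of rpl19 was 304, 247, 213, 216 and 148 FPKM in mutant eggs, against 417, 408, 464, 328 and 518 FPKM in wild-type eggs (log2 -0.94, SE 0.18; limma adjusted p = 0.0036). That of rps8a was 84.6, 91.9, 98.7, 74.9 and 60.7 FPKM in mutant eggs, against 147, 186, 139, 119 and 175 FPKM in wild-type eggs (log2 -0.89). Neither gene had a mutant library inside the wild-type range. The gene rpl23 (-0.74) and the abundant rps14 (-0.36, a call lost in 5 of 25 alternatives) fell too, as did rpl36a (-1.04, lost in 10). In egg libraries 1 to 3 alone 11 ribosomal protein genes were lower and 1 was higher.

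Among 63 translation factors 4 rose and 9 fell (6.35% and 14.3%, against 6.54% and 7.9% of all genes), with a median of -0.10. With the replicate block 6 rose and 11 fell. The poly(A)-binding protein gene pabpc1a, which protects the tails of stored messages, stood at 363, 507, 504, 478 and 530 FPKM in mutant eggs, against 813, 768, 784, 896 and 1045 FPKM in wild-type eggs (log2 -0.86, SE 0.12; limma adjusted p = 0.000531). The initiation factor genes eif4g3b and eif3d fell by 1.89 and 1.30, with eif4g3b at 0.230 ± 0.0613 FPKM in mutant eggs and 3.62 ± 0.930 FPKM in wild-type eggs. The products of denr and mcts1 form a pair that restarts and recycles ribosomes, and both transcripts rose. Those of denr were 9.87, 11.7, 10.1, 15.1 and 12.98 FPKM in mutant eggs, against 5.59, 5.01, 4.26, 4.15 and 6.93 FPKM in wild-type eggs (log2 1.07). Those of mcts1 averaged 20.2 ± 2.17 FPKM in mutant eggs and 12.7 ± 3.98 FPKM in wild-type eggs, with wild-type library 5 inside the mutant range (log2 0.67, a call lost in 10 of 25 alternatives). The proliferation gene pa2g4b, whose product binds ribosomes, fell by 2.95, with 1.54 to 3.02 FPKM in mutant eggs, against 15.7 to 29.4 FPKM in wild-type eggs.

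Genes that modify transfer RNA changed strongly in 2 cases. The methyltransferase gene mettl2a had 3.57, 3.26, 0.706, 2.47 and 0.167 FPKM in mutant eggs, against 60.9, 47.6, 83.4, 57.7 and 60.9 FPKM in wild-type eggs (log2 -4.54). The isopentenyltransferase gene trit1 had 3.68, 4.05, 0.673, 1.23 and 0.901 FPKM in mutant eggs, against 6.70, 10.1, 6.37, 8.81 and 4.70 FPKM in wild-type eggs (log2 -1.54). For neither gene did the groups overlap. With mettl26, of less certain function, at 0.89, 7 of 68 genes of transfer and ribosomal RNA modification rose and 9 fell. These shares were 10.3% and 13.2%, against 6.54% and 7.9% of all genes. The majority of falls turned round with TPM without mitochondrial-genome genes (11 and 7).

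Genes of messenger RNA decay were called 3 higher and 3 lower among 60 (5% each, against 6.54% and 7.9% of all genes). The deadenylase gene cnot7, whose enzyme shortens poly(A) tails, stood at 6.96, 6.11, 6.67, 5.54 and 8.37 FPKM in mutant eggs, against 1.44, 1.34, 1.52, 1.06 and 1.95 FPKM in wild-type eggs (log2 1.65, SE 0.15; limma adjusted p = 1.59e-05). The scavenger decapping gene dcps, which clears cap remnants, averaged 9.64 ± 1.999 FPKM in mutant eggs and 25.4 ± 2.74 FPKM in wild-type ones (SD, n = 5 each; log2 -1.32). In pre-mRNA splicing 1 of 79 genes rose and 8 fell (1.27% and 10.1%). Among the falls were srsf7a at -1.18, dhx16 at -0.97 and prpf18 at -0.89 (lost in 7 of 24 alternatives). With the replicate block, 9 splicing genes rose and 12 fell.

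Lysosomal genes held changes both ways, at shares near those of all genes. Besides spns1, the protease genes ctsd (-1.25) and lgmn (-0.91) fell, while the membrane protein gene lamp2 (0.62, a call lost in 10 of 25 alternatives) rose. The autophagy genes atg5 and atg7, both needed to lipidate LC3, rose. Transcripts of atg5 averaged 64.3 ± 7.56 FPKM in mutant eggs and 45.6 ± 3.38 FPKM in wild-type eggs, and those of atg7 1.56 ± 0.185 FPKM in mutant eggs and 0.586 ± 0.238 FPKM in wild-type ones (SD, n = 5 each), without overlap for either. The atg5 call was lost in 4 of 25 alternatives, among them median-of-ratios scaling and TPM. Of 50 lysosome and autophagy genes 4 rose and 5 fell (8% and 10%, against 6.54% and 7.9% of all genes; 1 and 7 with TPM). The cathepsin gene ctss2.1, which the lysosome list does not hold, was among the abundant rises, at 287, 461, 395, 285 and 251 FPKM in mutant eggs, against 215, 86.1, 237, 87.1 and 101 FPKM in wild-type eggs (log2 1.31).

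Endocytic and Golgi traffic held several rises of more than 2 on the log2 scale. The recycling gene rab11a stood at 21.9, 17.8, 30.6, 25 and 30.1 FPKM in mutant eggs, against 3.81, 4.49, 4.51, 4.83 and 5.01 FPKM in wild-type eggs (log2 2.21), and ehd1a, which acts in the same route, at 9.80, 14.3, 14.5, 11.2 and 15.6 FPKM in mutant eggs, against 1.23, 1.30, 1.11, 2.41 and 1.78 FPKM in wild-type eggs (log2 2.46). The Golgi coat regulator gene arfgap1 stood at 14.1, 17.7, 13.4, 14.8 and 18.9 FPKM in mutant eggs, against 2.52, 3.06, 2.40, 2.25 and 3.37 FPKM in wild-type eggs (log2 2.17). All 3 genes had mutant libraries well clear of the wild-type ones. The adaptor subunit gene ap3m1 (1.45) and the small GTPase gene rhogd (2.95) rose as well, while the retromer gene vps26a (-1.64), the sorting nexin gene snx16 (-1.29) and the Cdc42 exchange factor gene fgd4b fell. The level of fgd4b was 0.0325 to 0.107 FPKM in mutant eggs, against 8.10 to 9.80 FPKM in wild-type eggs (log2 -3.28). Over the lists, 10 of 133 genes of rabs and other small GTPases rose and 10 fell (7.52% each), or 16 and 14 with the replicate block. Of 128 genes of coats and SNAREs 8 rose and 6 fell (6.25% and 4.69%), or 21 and 7 with the block and 3 and 8 with TPM. Of all genes tested, 6.54% were called higher and 7.9% lower.

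**Figure D3:**
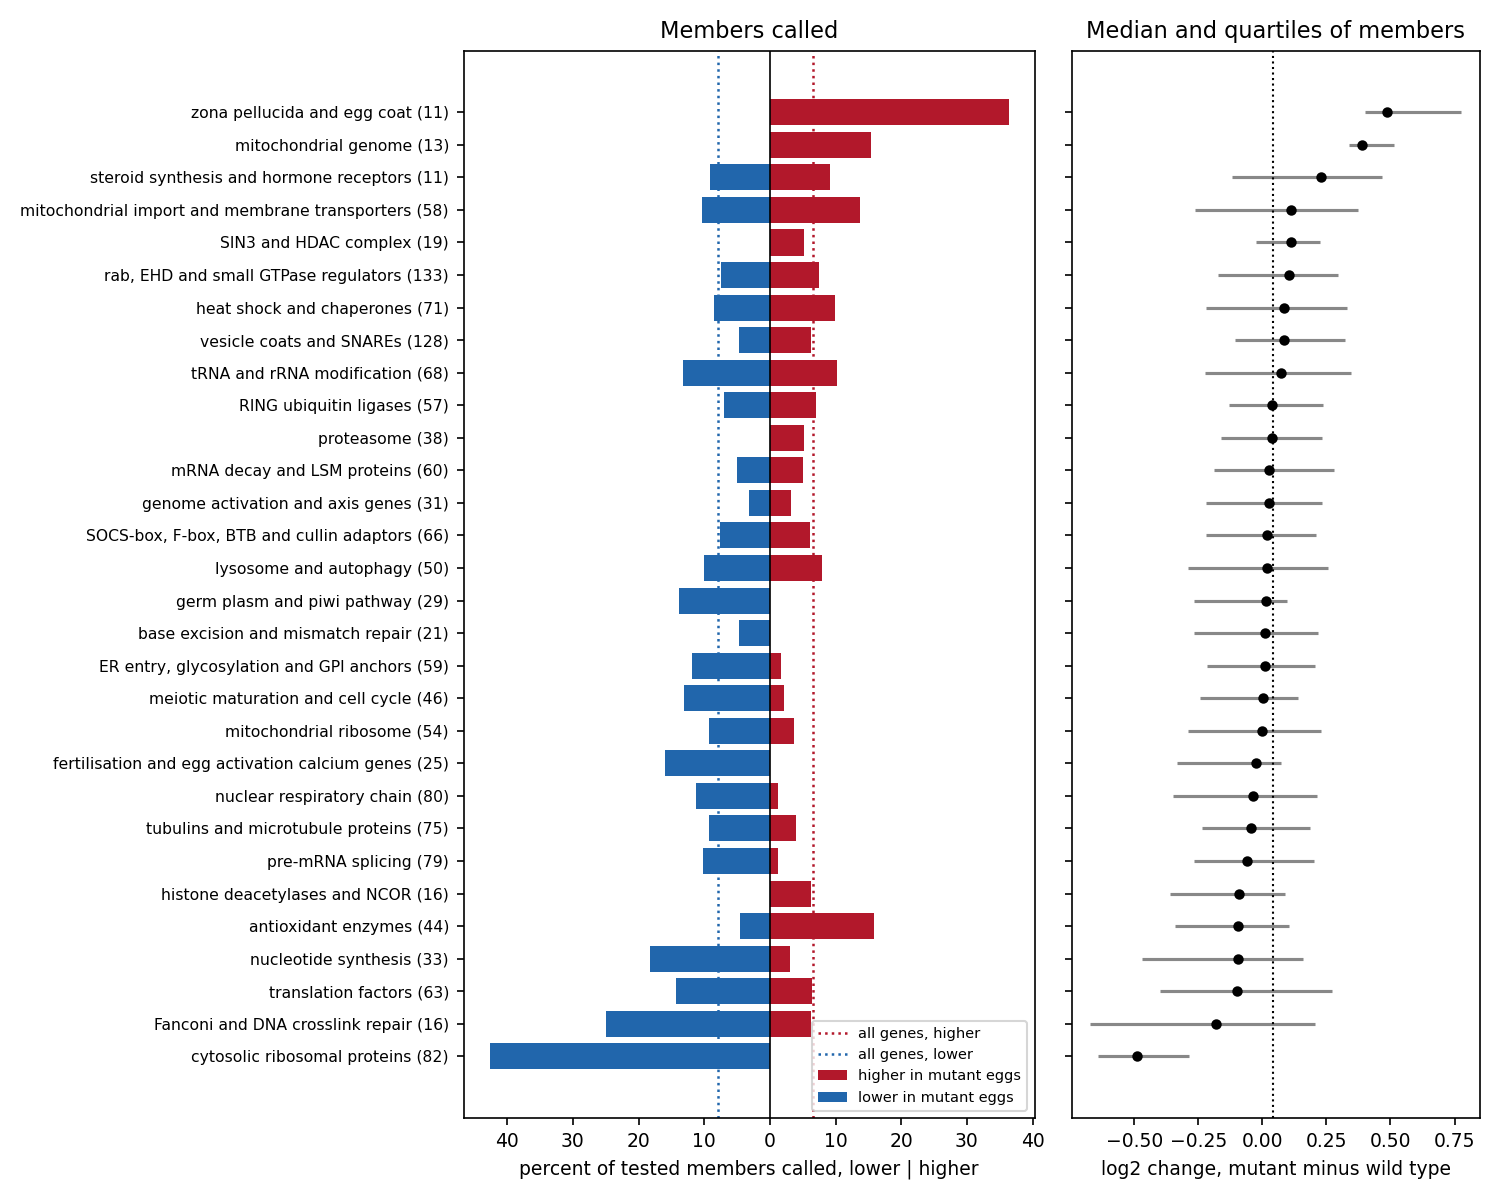
Left, percent of the tested members of each gene list that were called lower (blue, to the left) or higher (red, to the right) in mutant eggs, with the number tested in brackets and dotted lines at 6.54% and 7.9%, the shares of all genes. Right, the median and quartiles of the members' log2 change, with a dotted line at the median of all genes, 0.04, in which ribosomal proteins lie lowest at -0.49 and egg coat genes highest at 0.49.

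The plot of gene lists places most lists near the background of all genes. Redox genes had more rises, 7 of 44 (15.9%, against 6.54% of all genes), than falls, 2 (4.55%, against 7.9%), although their median was -0.10. The peroxidase gene gpx8, which acts in the endoplasmic reticulum, had 4.61, 10.3, 5.64, 9.91 and 7.20 FPKM in mutant eggs, against 0.450, 0.378, 0.277, 0.697 and 0.408 FPKM in wild-type eggs (log2 2.52). The methionine sulfoxide reductase gene msrb1a stood at 13.9, 14.2, 14.4, 16.7 and 17.1 FPKM in mutant eggs, against 6.35, 6.80, 5.61, 7.16 and 7.49 FPKM in wild-type eggs (log2 1.08). Both were clear of overlap, but gpx8 reached 1 FPKM in mutant libraries alone, so it had to differ to be tested. The glutathione transferase gene gstr (1.86) and the peroxidase gene gpx1b (0.80) rose, while the transferase gene gstp1, at 122 ± 18.1 FPKM in mutant eggs and 258 ± 39.9 FPKM in wild-type ones (SD, n = 5 each), and the thioredoxin-like gene txnl1 (-1.51) fell. The counts were 8 and 5 with the replicate block. Among 71 heat shock and chaperone genes 7 rose and 6 fell (9.86% and 8.45%), or 10 and 6 with the block and 6 and 8 with TPM. The gene of a subunit of the cytosolic chaperonin, tcp1, stood at 30.8, 43.4, 39.9, 40.4 and 38.7 FPKM in mutant eggs, against 8.84, 4.68, 7.62, 5.68 and 17.2 FPKM in wild-type eggs (log2 2.13). The lectin chaperone gene calr fell by 0.98 and hsp90ab1 by 0.69, where the hsp90ab1 call was lost in 12 of 25 alternatives.

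Among egg and maternal genes the egg coat stood out by its rises. Of 11 tested genes of the zona pellucida family, whose products build the egg envelope, 4 rose and none fell (36.4% against the 6.54% of all genes called higher). The gene zp2.5 had 4.55, 4.96, 7.78, 6.35 and 7.48 FPKM in mutant eggs, against 2.46, 0.878, 2.38, 0.706 and 0.498 FPKM in wild-type eggs (log2 1.67). The gene zp3b had 15.4, 17.004, 12.4, 22.8 and 25.7 FPKM in mutant eggs, against 10.4, 7.31, 9.22, 9.74 and 11.1 FPKM in wild-type eggs (log2 0.87), while for zp2.2 (1.26) mutant library 3 lay inside the wild-type range. The count was 3 with median-of-ratios scaling and with TPM, and 2 in egg libraries 1 to 3 alone. The zp2 genes are near copies of each other, so how reads were shared between them is not known.

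In germ plasm and the piwi pathway, which silences transposons in the germ line, 4 of 29 genes fell (13.8%, against 7.9% of all genes) and none rose, and 2 fell with TPM without mitochondrial-genome genes. The mitochondrial phospholipase gene pld6, which acts in making piwi-bound RNA, stood at 59.6, 61.4, 60.2, 53.2 and 51.7 FPKM in mutant eggs, against 114, 108, 109, 97.4 and 110 FPKM in wild-type eggs. The groups were tight and apart (log2 -0.90, SE 0.09; limma adjusted p = 3.37e-05). The oocyte gene zar1l had 94.2, 95.8, 87.1, 39.5 and 43.2 FPKM in mutant eggs, against 220, 206, 278, 128 and 87.5 FPKM in wild-type eggs (log2 -1.33, a call lost in 6 of 25 alternatives). Libraries 4 and 5 were the lowest of either genotype for zar1l. The calls of tdrd12 (-0.48) and ybx1 (-0.27), which binds maternal messages, were lost in 7 and 17 settings. Of 31 genes of genome activation and axis formation 1 rose and 1 fell (3.23% each, against 6.54% and 7.9% of all genes). Of 25 genes of fertilisation and calcium signalling none rose and 4 fell (16%, against 7.9% of all genes). They included calm2a (-0.78), camk2g1 (-0.34) and ddb1 (-0.42), with calls lost in 6, 16 and 16 settings. The damage-binding gene ddb1 has no part in fertilisation that is known here. With TPM without mitochondrial-genome genes 1 of the 25 rose and 1 fell.

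The most abundant messages outside the mitochondrial genome changed little or moderately. The histone gene h2af1al, the highest of them in wild-type eggs, stood at 1050, 984, 1333, 959.99 and 1347 FPKM in mutant eggs, against 2480.3, 2119, 2263, 1759.9 and 1469 FPKM in wild-type eggs (log2 -0.82, SE 0.15; limma adjusted p = 0.00352). The maternal linker histone gene h1m averaged 2038 ± 333 FPKM in mutant eggs and 1913 ± 191 FPKM in wild-type ones (SD, n = 5 each; log2 0.08, adjusted p = 0.702). The genes sumo3b (-0.20, adjusted p = 0.156) and cth1 (-0.37, adjusted p = 0.0934) did not pass the test either, and hnrnpabb fell by 0.31, a call lost in 12 of 25 settings. Of the abundant genes that rose, cldnd, a claudin gene, stood at 1916, 1974, 2297, 1574 and 1642 FPKM in mutant eggs, against 1203, 1115, 1333, 941 and 818 FPKM in wild-type eggs (log2 0.81). The RNA polymerase II subunit gene polr2gl had 618, 594, 561, 620 and 530 FPKM in mutant eggs, against 90.8, 139, 82.4, 181 and 153 FPKM in wild-type eggs (log2 2.23). Every mutant library held at least 530 FPKM and no wild-type library more than 181.

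Chromatin genes of the high mobility group family, named after their values were seen apart from hmgb2b, moved in opposite directions. The gene hmgb2b stood at 566, 566, 752, 580 and 574 FPKM in mutant eggs, against 261, 342, 236, 313 and 249 FPKM in wild-type eggs (log2 1.12). The gene hmgb1a had 6.52, 8.57, 8.002, 9.27 and 9.68 FPKM in mutant eggs, against 41.6, 23.7, 39.9, 44.8 and 47.1 FPKM in wild-type eggs (log2 -2.08), and hmgb3b 24.7 to 48.0 FPKM in mutant eggs, against 60.9 to 326 FPKM in wild-type eggs (log2 -2.02). The genotypes did not overlap in any of the 3 genes. The histone message binding gene slbp, needed to process and store histone transcripts, rose, at 261 ± 30.3 FPKM in mutant eggs and 158 ± 21.96 FPKM in wild-type ones (SD, n = 5 each; log2 0.73). The oogenesis-related gene org fell by 0.50, a call lost in 13 of 25 alternatives.

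Many of the large changes lay near each other in the genome. Gene order was taken from the assembly GRCz12tu, where 7226 tested genes could be placed. Of the 71 placed genes with a call and a change of at least 2 on the log2 scale, 42 (59.2%) had another such gene among the 10 tested genes on either side. The same neighbourhood held such a gene for 20.5% of genes with smaller calls and for 11.2% of genes not called. There were 4 runs of at least 3 such genes, which together held 20 genes, and within each run all large changes went the same way.

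**Figure D4:**
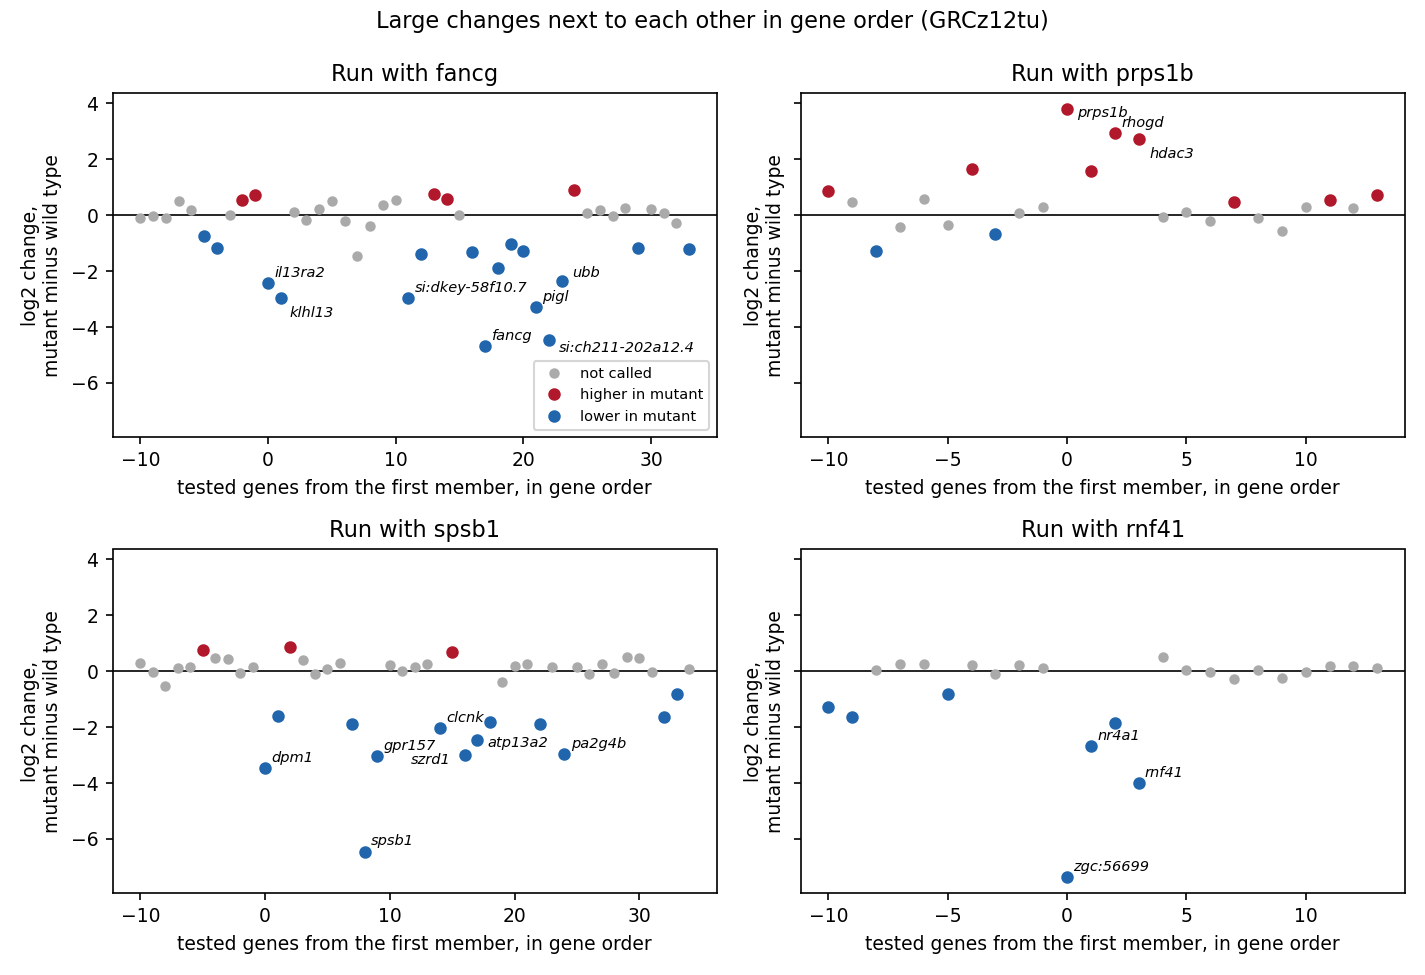
Log2 change, mutant minus wild type, of tested genes in and around 4 runs of large changes, by their place in gene order counted in tested genes from the first member of the run. Named genes are the members, which are all lower in 3 runs and all higher in the run with prps1b, and grey genes between them did not pass the test.

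The plot of runs shows that not every gene within a run changed. The run with spsb1 spanned 25 tested genes, of which 11 were lower, 2 higher and 12 not called. Its large falls were dpm1, spsb1, gpr157, the chloride channel gene clcnk, szrd1, the lysosomal transporter gene atp13a2 and pa2g4b. Of these, szrd1, atp13a2 and clcnk varied alike among mutant females. The level of szrd1 was 11.7, 7.91, 0.760, 0.841 and 0.637 FPKM in mutant eggs, against 25.9, 28.5, 25.3, 34.3 and 26.7 FPKM in wild-type eggs. That of atp13a2 was 4.86, 2.70, 0.101, 0.186 and 0.192 FPKM in mutant eggs, against 11.6, 8.20, 11.8, 9.85 and 10.3 FPKM in wild-type eggs. That of clcnk was 3.26, 2.16, 0.0263, 0.104 and 0.102 FPKM in mutant eggs, against 4.92, 6.90, 5.41, 7.89 and 6.43 FPKM in wild-type eggs. Mutant females 1 and 2 were intermediate and mutant females 3, 4 and 5 near 0 for all 3 genes, whereas spsb1, in the same run, was low in all 5.

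The run with fancg spanned 24 tested genes, with 12 lower, 2 higher and 10 not called. It held il13ra2, klhl13, fancg, pigl, ubb and 2 clone-named genes. Its first members also varied between females. The decoy receptor gene il13ra2 had 1.51, 14.3, 40.9, 1.46 and 1.59 FPKM in mutant eggs, against 34.9, 38.2, 32.6, 34.6 and 27.0 FPKM in wild-type eggs, a call lost in 10 of 25 alternatives. The kelch adaptor gene klhl13 had 0.471, 10.4, 22.04, 0.314 and 0.653 FPKM in mutant eggs, against 47.1, 18.2, 39.4, 16.1 and 37.4 FPKM in wild-type eggs, a call lost in 4 settings. For both genes mutant female 3 reached the wild-type range or passed it, mutant female 2 lay below that range, and the other 3 mutants were far lower, whereas the ubiquitin gene ubb, at the other end of the run, had at most 0.129 FPKM in any mutant and 3.27 to 5.48 FPKM in wild-type eggs. In the run with prps1b, all 4 spanned genes rose, hdac3 and rhogd among them, with rhogd at 19.8, 15.4, 13.1, 19.1 and 15.4 FPKM in mutant eggs, against 1.30, 0.467, 2.199, 1.30 and 1.33 FPKM in wild-type eggs. In the run with rnf41 all 4 spanned genes fell, zgc:56699 and nr4a1 among them.

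Variation between mutant females was seen outside the runs too. The tubulin gene tuba8l2 ran from 0.631 to 4.05 FPKM in mutant eggs, against 4.17 to 5.96 FPKM in wild-type eggs (log2 -1.14, a call lost in 5 of 24 alternatives), while map7d3, which binds microtubules, was even, at 0.0549 to 0.157 FPKM in mutant eggs, against 1.11 to 2.08 FPKM in wild-type eggs. Of 75 genes of tubulins and microtubule proteins 3 rose and 7 fell (4% and 9.33%, against 6.54% and 7.9% of all genes). Their median was -0.04, against 0.04 for all genes.

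Close to sinhcaf itself, of the 8 tested genes on each side, 16 in all, 4 were called, and all 4 were lower (25%, against 14.4% of all placed genes). All 4 lay on the same side of sinhcaf, and none of the 8 on the other side was called. The Golgi transport gene golt1ba stood at 5.55, 5.43, 5.73, 5.42 and 5.12 FPKM in mutant eggs, against 21.4, 21.9, 26.0, 21.0 and 26.8 FPKM in wild-type eggs (log2 -1.91, SE 0.12; limma adjusted p = 5.64e-07). The nuclear lamina gene tmpoa had 46.9, 46.9, 46.7, 40.4 and 43.2 FPKM in mutant eggs, against 85.2, 74.6, 75.4, 74.0 and 74.9 FPKM in wild-type eggs (log2 -0.76). The levels of golt1ba were even within each genotype, and for tmpoa wild-type library 1 lay above the other wild-type libraries. The falls of kiss2 (-0.55) and strap (-0.37) rest on calls lost in 16 of 24 and in 15 of 25 alternatives. Among the 50 tested genes on either side, 12% were called.

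Markers of other ovarian and blood cells were mostly absent from the eggs of both genotypes. Of 14 granulosa markers, 1 reached 1 FPKM in any egg library, cyp11a1, the first enzyme of steroid synthesis, and foxl2a and fsta were at 0 in all 10. Transcripts of cyp11a1 stood at 46.6, 116, 36.6, 96.3 and 134 FPKM in mutant eggs, against 33.6, 29.1, 36.4, 27.7 and 27.2 FPKM in wild-type eggs (log2 1.29, SE 0.31; limma adjusted p = 0.0165). Mutant libraries 1 and 3 were close to the wild-type level and libraries 2, 4 and 5 far above it. The summed granulosa markers were 37.0 to 135 FPKM in mutant eggs and 27.5 to 36.6 FPKM in wild-type eggs, nearly all of it cyp11a1. In bulk eggs, more cells of a type and more RNA per cell cannot be told apart, and the part of other cells in the egg changes was not tested. The progesterone receptor component gene pgrmc1 fell by 0.77, the other call among 11 genes of steroid synthesis and hormone receptors. Their shares were 9.09% higher and 9.09% lower, against 6.54% and 7.9% of all genes.

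Of 12 leukocyte markers, 2 reached 1 FPKM in some egg library, and their sum was 7.27 to 15.5 FPKM in mutant eggs and 2.04 to 5.12 FPKM in wild-type eggs. They were rac2, at 1.35 to 4.62 FPKM in mutant eggs and 0.339 to 2.77 FPKM in wild-type eggs, and cxcr4b, a chemokine receptor gene that primordial germ cells use as well, at 8.36, 5.35, 6.40, 10.4 and 11.2 FPKM in mutant eggs, against 0.871, 0.650, 1.53, 1.24 and 1.45 FPKM in wild-type eggs (log2 2.096). The defining leukocyte genes lyz and mpeg1.1 were at 0, and ptprc, lcp1 and coro1a under 0.5 FPKM, in all 10. The leukocyte marker mpx ran from 0 to 0.128 FPKM in mutant eggs and from 0.0756 to 0.734 FPKM in wild-type eggs. Theca and stromal markers, of which 3 of 11 reached 1 FPKM and fn1a fell by 0.999, summed to 63.1 to 87.2 FPKM in mutant eggs and 63.2 to 100 FPKM in wild-type eggs. Nearly all of it was cyp17a1, at 61.7 to 84.6 FPKM in mutant eggs and 59.9 to 96.6 FPKM in wild-type eggs. The stromal genes col1a1a, col1a2, dcn, lum, pdgfra, sparc and vim were under 0.5 FPKM in all 10. Of 8 erythrocyte and 7 liver markers none reached 1 FPKM. Of 8 endothelial markers 1 did, cldn5b, which made up most of a sum of 5.86 to 9.04 FPKM in mutant eggs and 4.38 to 7.26 FPKM in wild-type eggs. The endothelial marker kdrl, under 1 FPKM in all 10, was lower in mutant eggs, at 0.145 to 0.185 FPKM against 0.308 to 0.675 FPKM in wild-type eggs.

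The egg changes were set beside those of FG follicles, whose 8 libraries share none with the egg comparison. The follicle calls came from a model of 4 groups over all 18 libraries, on the genes that passed the egg filter. Their error estimate is thus shared with the egg libraries. Of the 1124 genes called in eggs, 520 (46.3%) were also called in FG follicles in the same direction and 15 in the opposite one, where 19.1% of all genes were called. Of the 80 genes with a change of at least 2 on the log2 scale in eggs, 69 (86.2%) were called the same way in follicles and 1 the opposite way. The difference between the egg effect and the follicle effect was itself called for 397 genes (5.1% of those tested), 288 with a higher and 109 with a lower value in eggs. That split depends on the scaling. It was 137 higher of 294 with median-of-ratios scaling and 76 higher of 226 with TPM, and the median difference over all genes was 0.13 as given, 0.01 with median-of-ratios scaling and -0.08 with TPM. Without mutant FG follicle library 1 the difference was called for 259 genes.

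**Figure D5:**
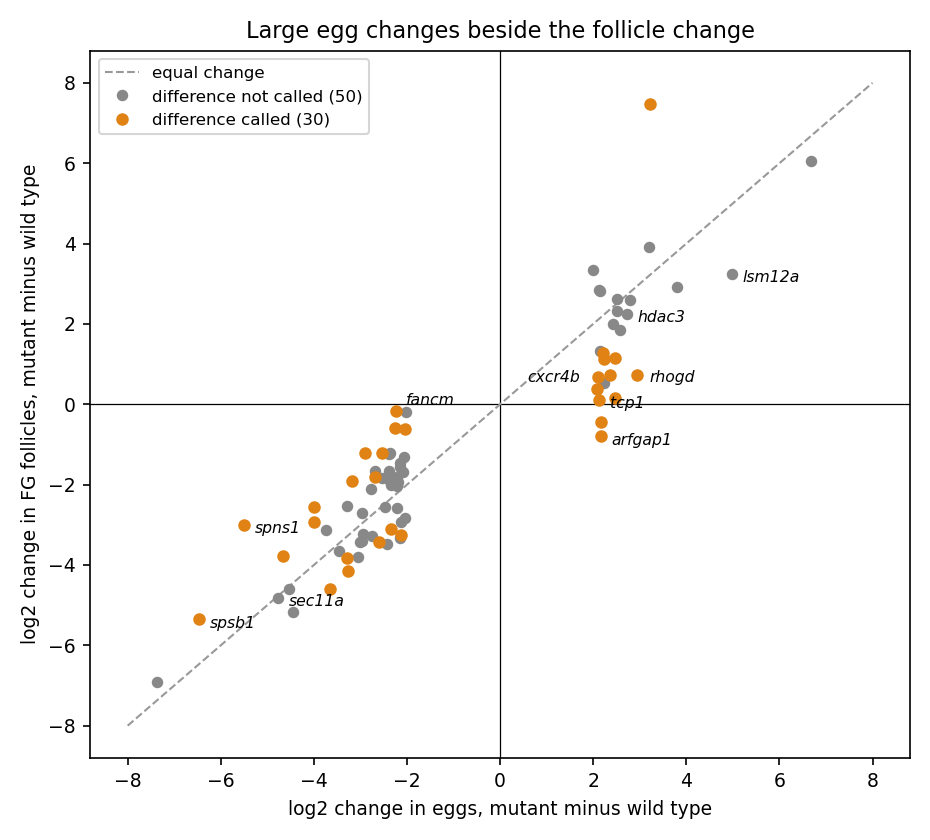
Log2 change, mutant minus wild type, of the 80 genes with a called change of at least 2 in eggs (horizontal axis) and in FG follicles (vertical axis), with the dashed line at equal change. Orange marks the 30 genes whose difference between stages was called, such as spns1, fancm, tcp1 and arfgap1, which lie nearer to 0 in follicles or, for arfgap1, below it.

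The plot of both stages shows large changes shared by stages and others that differed in size. Of the 30 called differences 23 were larger in eggs, where the 80 genes were chosen by their size in eggs. Larger in follicles on the log2(FPKM + 1) scale were, among others, ubb, at -2.35 in eggs and -3.09 in follicles, and mrps22, at -3.27 in eggs and -4.14 in follicles. In mutant eggs both genes were under 1 FPKM, where this scale limits the size of a fall to the wild-type level. The difference of mrps22 was lost in 15 of 21 alternatives and that of ubb in 2. With median-of-ratios scaling both changed sign, to -0.0044 for mrps22 and -0.16 for ubb. Shared ones were sec11a, at -4.76 in eggs and -4.81 in follicles, mettl2a, at -4.54 in eggs and -4.59 in follicles, and hdac3, at 2.73 in eggs and 2.25 in follicles, each without a called difference. The fall of spns1 was larger in eggs, by a difference of -2.50 (limma adjusted p = 3.52e-07), as was that of golt1ba, by -1.38. The spns1 difference was not called with a pseudocount of 0.1, and it ran from -3.33 to -0.49 over 21 alternatives. For fancm the egg fall of 2.24 stood beside a follicle change of -0.17 that did not pass the test, and the difference of -2.07 was called (adjusted p = 0.00117). The same held for trim105, eif3d, dcps, lgmn and gstp1, whose differences ran from -1.43 to -0.78. That of lgmn was lost in 8 of 21 alternatives and that of gstp1 in 3.

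Among rises, those of rhogd and tcp1 were larger in eggs by 2.22 and 2.02, and tcp1 changed by 0.11 in follicles, which did not pass the test (adjusted p = 0.818). A pair of genes named here, arfgap1 and denr, were called in opposite directions. The Golgi gene arfgap1 rose by 2.17 in eggs and fell by 0.79 in follicles, and the difference of 2.96 had an adjusted p of 6.15e-07. The ribosome recycling gene denr rose by 1.07 in eggs and fell by 0.61 in follicles (difference 1.67, adjusted p = 0.000266). The genes hmgb2b (difference 1.45), msrb1a (1.196), psmg1 (1.41), gstr (1.54), cxcr4b (1.43) and abcb10 (1.63) also had a higher genotype effect in eggs than in follicles by the same test. The cxcr4b difference was lost in 3 of 21 alternatives. As abcb10 passed the egg filter through mutant egg libraries alone, it had to differ in eggs to be tested, and its difference between stages is no separate support.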

How the data were processed

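Messenger RNA of mature eggs was measured in 10 libraries, 5 of sinhcaf mutant and 5 of wild-type females, among the 18 libraries of the series. The authors deposited FPKM values per Ensembl gene, for which the submitters' processing notes list Trimmomatic, HISAT2, Cufflinks and HTSeq with GRCz11 as the build. Versions, roles, annotation and the use of strand are not given in the sources used here, so reads of near copies and overlapping genes may be split in ways that cannot be checked. Depth is unknown.

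Values were taken as log2(FPKM + 1), which draws the changes of low genes towards 0. Of 25432 genes, 7788 had at least 1 FPKM in at least 4 egg libraries. Just inside this limit, 287 genes reached it in exactly 4 libraries (median of mean FPKM 0.957), and just outside, 312 reached it in exactly 3 (0.827). In 76 of the tested genes only mutant libraries reached 1 FPKM and in 105 only wild-type ones, and such genes had to differ to pass. A model of 2 group means was fitted with limma 3.58.1 in R 4.3.3 (lmFit, eBayes with trend), leaving 8 residual degrees of freedom, and was tested on simulated data beforehand. Calls have a Benjamini-Hochberg adjusted p under 0.05 over all 7788 genes. The genotype effect in FG follicles and its difference from that in eggs were contrasts in a model of 4 groups over all 18 libraries. For single values the test was a two-sided exact permutation test. A p-value sets a difference between groups against the spread between females, which limma draws towards a trend over all genes. Females are taken as independent.

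Replicate numbers come from the sample titles. Residuals of same-numbered mutant and wild-type libraries correlated at 0.125, 0.124, 0.378, 0.484 and 0.260, all above 0.1. A fit with the number as a block therefore stands beside the main counts, although the females differ. The wild-type library that correlated best was 3 for mutants 1 to 3 and 4 for mutants 4 and 5. The same number was thus not the best match for mutants 1, 2 and 5, and the block is not a known pairing.

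Called genes were named by rule: large changes without overlap (15 each way), large FPKM differences (8 each way), up to 3 members per list, near-absent genes, SIN3 members, the 5 most abundant genes and genes near sinhcaf. The rule gives 143 genes, and the text uses part of them, since some items are not reported here. Another 26 genes were named after their values were seen: mcts1, dpm3, atg5, atg7, anapc13, anapc16, hmgb1a, hmgb3b, fanci, ube2t, gstp1, ubb, atp13a2, clcnk, il13ra2, pnp5a, dut, cad, gpx1b, msrb1a, grpel2, hsp90ab1, calr, mrpl34, zgc:56699 and si:dkey-9c18.3. The genes and the 30 lists were chosen with earlier results of these data known. Lists were described by counts and medians, without a set test. Gene order came from GRCz12tu, which is not the build of the files, so no coordinates are given, and no sequences were used.

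Alternatives were pseudocounts of 0.1 and 0.5, no level filter and a filter at 5 FPKM, median-of-ratios, TPM and quantile scaling, TPM without mitochondrial-genome genes, other variance settings, array weights, the replicate block, and leaving out each library. Fits of libraries 1 to 3 and of 4 and 5 alone were added after seeing the data.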

Additional observations from a re-analysis of the deposited data

Results flagged for a closer look

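For 42 of the 137 genes given here, the genotype effect in eggs differed from that in FG follicles by the limma test of the difference (Benjamini-Hochberg adjusted p under 0.05 over all 7788 genes). Over all 7788 genes this difference was called for 397 (5.1%). Since 134 of the 137 genes were called in eggs, the share among them is not comparable with that of all genes. Each value is the log2 effect in eggs minus that in follicles, beside a median of 0.13 over all genes. Of these 42 calls, 16 held in all 21 alternatives, 16 were lost in 1 to 3 and 10 in 8 or more. Those 10 were lgmn (8), fgd4b (13), cycsb, dnajc15 and spsb1 (14 each), mrps22 (15), mt-cyb (16), and cdc26, mcts1 and polr2gl (17 each), with the number of alternatives in brackets. Of the 42, fancg, cdc26, nr4a1, lrit3a, rnf41, urahb, mrps22, eif4g3b, fgd4b, ubb and fn1a reached 1 FPKM in wild-type egg libraries alone. The same held for abcb10 in mutant egg libraries. These genes had to differ in eggs to be tested, so their calls between stages are no separate support. Lower in eggs were -2.50 for spns1, -2.07 for fancm, -1.44 for urahb, -1.43 for trim105, -1.38 for golt1ba, -1.30 for eif4g3b, -1.27 for lrit3a, -1.13 for eif3d, -1.10 for spsb1, -1.09 for lgmn, -1.09 for rnf41, -1.06 for dcps, -0.90 for fancg, -0.86 for nr4a1, -0.78 for gstp1 and -0.62 for fn1a. Higher in eggs were, first, 0.53 for fgd4b, 0.54 for cycsb, 0.64 for h1m, 0.74 for ubb, 0.79 for cnot7, 0.82 for cdc26, 0.84 for mcts1, 0.85 for slbp, 0.86 for mrps22, 0.94 for rab11a, 1.09 for polr2gl, 1.12 for mt-nd5 and 1.16 for dnajc15. Further such values were 1.196 for msrb1a, 1.29 for mrpl34, 1.30 for ehd1a, 1.30 for mt-cyb, 1.41 for psmg1, 1.43 for cxcr4b, 1.45 for hmgb2b, 1.54 for gstr, 1.63 for abcb10, 1.67 for denr, 2.02 for tcp1, 2.22 for rhogd and 2.96 for arfgap1. The genes fgd4b, ubb, cdc26 and mrps22 fell at both stages, so their higher value is a smaller fall in eggs. For these genes the difference changed sign with median-of-ratios scaling. Whether the mitochondrial share of a library had a part in the mt-nd5 and mt-cyb values was not tested. This share of summed FPKM averaged 43.4% over the mutant egg libraries and 35.5% over the wild-type ones. Its difference did not pass when adjusted over 4 library measures (exact permutation p = 0.0238, adjusted 0.0952). No such share is given here for FG follicles.

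In 15 of the 286 groups of 5 libraries looked at, for the genes given here and the library measures, 1 library lay far from the other 4 by Dixon's test, where chance gives about 5% of groups. In mutant eggs library 3 was the highest for 5 genes, at 13.2 FPKM for cln6a, which encodes a membrane protein of the endoplasmic reticulum and was higher in mutants (log2 2.15), 0.335 FPKM for eif4g3b, 752 FPKM for hmgb2b, 0.859 FPKM for mrps22 and 3.97 FPKM for zgc:56699. Mutant library 4 was the highest for dpm3, at 6.66 FPKM. In wild-type eggs library 5 was the highest for lsm12a at 59.7 FPKM, for mrpl54 at 10.1 FPKM and for psmg1 at 12.6 FPKM, and the lowest for fgd4b at 8.10 FPKM. Wild-type library 3 was the highest for pigl at 13.2 FPKM and for sumo3b at 1578 FPKM, library 4 for pnp5a at 2.98 FPKM and for rnf141 at 1.45 FPKM, and library 1 for tmpoa at 85.2 FPKM.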

How the results depend on the processing

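Every one of the 1124 calls kept its direction in every alternative in which the gene was tested, but the alternatives reuse the same egg libraries. Of the 1124, 905 were called again with median-of-ratios scaling and 792 without wild-type egg library 1. In libraries 1 to 3 alone 733 were called again, and in libraries 4 and 5 alone 544. The number of genes called was 756 to 2099, and the number called higher was 316 with a filter at 5 FPKM, 338 with TPM and 791 with all 18 libraries in 1 model. With array weights 2099 genes were called, 1073 higher and 1026 lower. With the replicate block 871 were higher, and that fit changed neither the total nor the number of lower genes by over 1.5 times. Libraries 4 and 5 alone gave 406 lower genes. Of the 134 called genes given here, 78 kept the call in every alternative and 89 in every one other than libraries 4 and 5 alone. The share of large changes with another near in gene order, 59.2%, was 43.9% in libraries 1 to 3 and 61.1% in 4 and 5. The difference between eggs and FG follicles was called for 226 genes with TPM, 76 of them higher in eggs, and 137 were higher with median-of-ratios scaling. Leaving out 1 library gave 259 to 544 such genes, 183 to 422 of them higher, with the lowest counts without mutant FG follicle library 1 and the highest without mutant egg library 1. Differences between stages that changed sign were those of cdc26 (-0.043), fgd4b (-0.43), mrps22 (-0.0044) and ubb (-0.16) with median-of-ratios scaling and of spsb1 (0.28) with a pseudocount of 0.1. The uncalled h1m stood at -0.019 with TPM and at -0.10 in libraries 4 and 5. The summed FPKM differed by 17678 to 39529 when 1 library was left out, with an exact permutation p of 0.0317 without mutant library 5. The share of the 10 highest other genes differed by -0.754 to -0.468 percentage points and did not pass when any library other than mutant 3 was left out. The cause of these shifts was not tested. Depth is not known, so levels under about 1 FPKM carry an unknown counting error.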
